A study of Homo sapiens with 22 samples.

Results

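Tumours given the RAS inhibitor RMC-7977 were set directly against tumours given the MEK inhibitor cobimetinib, gene by gene. The comparison used 8 of the 22 tumours of the series, 4 on each drug, and 16193 of the 58735 genes of the count table, those that passed a filter on low counts in these 8 tumours. The tumours were xenografts of the human line H2110, from a lung adenocarcinoma and labelled wild type (WT) in every group, and RNA was sequenced after 3 days of oral dosing that began at a volume of about 300 mm³. RMC-7977 was given at 10 mg/kg and cobimetinib at 3 mg/kg, so each difference holds at these doses. A further 6 tumours of the same line on Vehicle, collected on the same schedule, are used below only to show levels. The labels do not name the host animal, and nothing says that the tumours of a group came from separate animals, so the p-values measure only the spread between these samples. All tumours derive from 1 cell line.

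RAS proteins are small GTPases that, when bound to GTP, switch on the RAF, MEK and ERK kinase cascade and also PI3K signalling. ERK drives transcription of immediate early genes and of its own brakes, such as the DUSP phosphatases and the Sprouty proteins, so the RNA of these genes is widely read as the output of the pathway. RMC-7977 binds cyclophilin A and, with it, the GTP-bound form of several RAS proteins, whereas cobimetinib blocks the kinases MEK1 and MEK2 further down. The title of the series names RIT1, a GTPase related to RAS, as the subject of the study.

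Levels are given in CPM, a gene's counts scaled by the library's total after TMM normalization, in replicates 1 to 4 of each drug, in that order, and for the 6 Vehicle tumours as the lowest, median and highest value. A log2 fold change is always RMC-7977 over cobimetinib, with its standard error, and a gene is called where the edgeR quasi-likelihood test gave a Benjamini-Hochberg adjusted p under 0.05. Gene positions are on build hg38, and "higher" and "lower" without a test describe levels only. In bulk tumours, fewer cells of a type and less RNA per cell cannot be told apart. Gene lists were chosen with earlier results of these data known, so their counts beside the share of all genes are a description, not independent support.

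The library of RMC-7977 replicate 3 stood apart from the other libraries. Only 5.02% of its detected genes had 1 or 2 counts, against 18.5% to 22.9% in the other 7, and its commonest count above 0 was 4 rather than 1. The first principal component (41.9% of the variance) separated this library from the rest, and the second (22%) separated the drugs for the other 7. For each library, a gene's log2 CPM minus its mean over the 8 tumours was rank-correlated with GC content. The correlation was −0.545 in RMC-7977 replicate 3 and −0.377 in cobimetinib replicate 3. It was −0.0318 to 0.294 in the other RMC-7977 libraries and 0.336 to 0.495 in the other cobimetinib libraries. Total counts were 10353740 to 15005429 under RMC-7977 and 12655067 to 15428394 under cobimetinib. Fewer genes were detected under RMC-7977 (20035 to 25183) than under cobimetinib (26115 to 28991), with no overlap, and the part of this in the results was not tested. The epithelial markers of the line were present in all 8 tumours, with KRT7 at 998 CPM or more and EPCAM at 351 CPM or more. Of the lung lineage markers, FOXA1 was at 129.6 CPM or more, LPCAT1 at 162.8 CPM or more and SLC34A2 at 21.6 CPM or more. ABCA3 was at 7.08 CPM or more and NKX2-1 between 0.256 and 16.5 CPM. By contrast, SFTPC was at 0.207 CPM or less and FOXA2 at 0.

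Direct comparison called 262 genes (1.62% of those tested), 161 higher (0.994%) and 101 lower (0.624%) under RMC-7977. Of these, 157 differed by at least 1 on the log2 scale and 242 were protein coding. The groups did not overlap for 260 of the 262, against 10.7% of all genes tested (5.78% with RMC-7977 above and 4.92% with it below). The exceptions, named after their values were seen, were CEACAM5, an epithelial adhesion glycoprotein, and ATP2A3, a calcium pump, both called higher with RMC-7977 replicate 3 inside the cobimetinib range. CEACAM5 lay at 203, 319, 18.9 and 279 CPM under RMC-7977 and at 23.8, 30.0, 17.5 and 29.3 under cobimetinib (log2 fold change 3.03 ± 0.62, adjusted p = 0.0397). Its adjusted p was 0.17 with the replicate number as a block, so that call was lost, and 1.08e-05 without RMC-7977 replicate 3. ATP2A3 lay at 733, 663, 126 and 839.9 CPM under RMC-7977 and at 108, 111, 88.3 and 183 CPM under cobimetinib (2.27 ± 0.47, adjusted p = 0.0413, and 0.000162 without RMC-7977 replicate 3).

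Without RMC-7977 replicate 3 the comparison called 710 of 16600 genes (4.28%), 424 higher (2.55%) and 286 lower (1.72%). All 262 genes called with 8 tumours were called without it in the same direction. With the replicate number as a block, 1630 genes were called (10.1%), 848 higher (5.24%) and 782 lower (4.83%), and 260 of the 262 kept their call and direction. Nothing in the labels says that a shared number marks a shared animal or batch, so calls with the block rest on an unstated pairing. The higher share of the calls was 61.5% as fitted, 74.9% with a correction for GC content (466 higher and 156 lower) and 45.7% with scaling by library size alone (105 higher and 125 lower). The count also turned on single tumours. It was 21 without RMC-7977 replicate 1, 38 without replicate 2 and 119 without replicate 4. It was 43, 28, 203 and 58 without cobimetinib replicates 1 to 4 in turn, and 20 genes were called in all 8 of these fits.

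**Figure D1:**
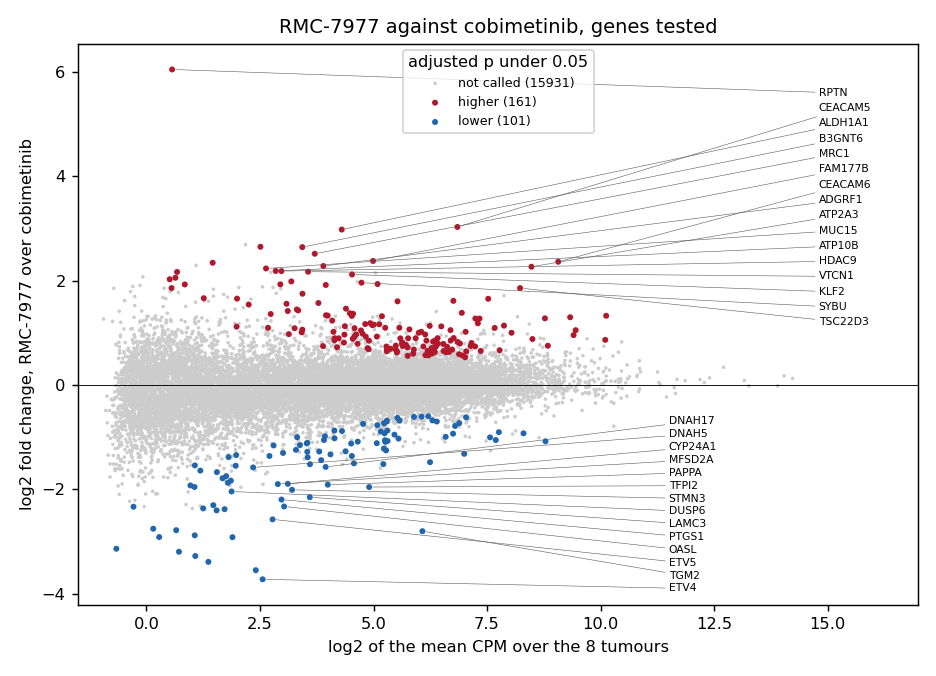
Log2 fold change of RMC-7977 over cobimetinib (vertical axis) against the log2 of the mean CPM over the 8 tumours (horizontal axis) for 16193 genes, 1 point a gene, with called genes in red (161 higher) and blue (101 lower). ETV4 lies lowest at −3.73, and ALDH1A1 (2.98) and CEACAM5 (3.03) are among the highest.

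**Figure D2:**
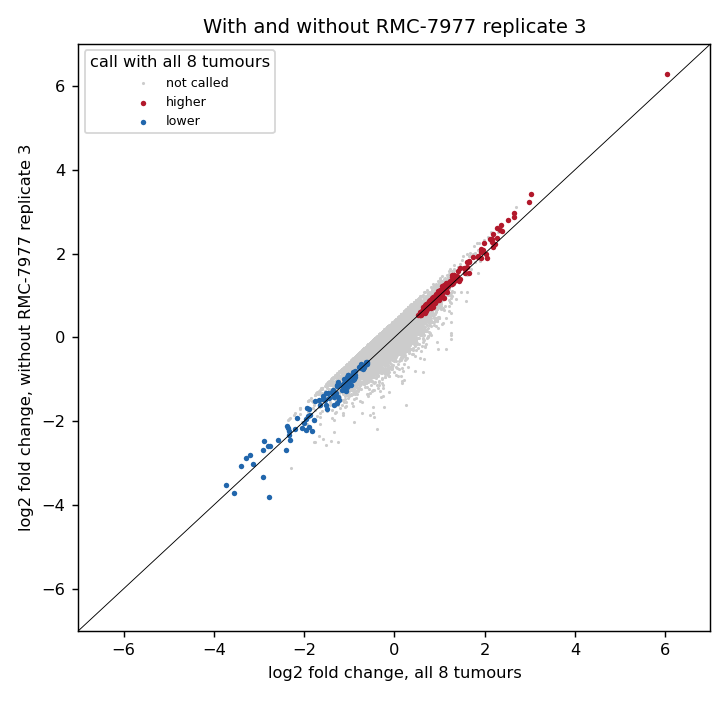
Log2 fold change with all 8 tumours (horizontal axis) and without RMC-7977 replicate 3 (vertical axis), 1 point a gene, with the line of equal values. The red and blue points, called with all 8 tumours, lie on the same side of 0 on both axes.

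Output genes of the MAPK pathway were lower under RMC-7977 than under cobimetinib for the transcription factors ETV4 and ETV5, the phosphatases DUSP6 and DUSP4 and the Sprouty protein SPRY4. These are 5 of the 9 tested genes of a list of 10 genes that ERK induces, against 0.624% of all genes, and none of the 9 was called higher. The same 5 were called without RMC-7977 replicate 3 and with the replicate block. The median log2 fold change of the 9 was −1.03, against −0.02 for all genes tested, and −1.13 without RMC-7977 replicate 3. EPHA4, the remaining member, did not pass the count filter.

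ETV4 (ENSG00000175832, chromosome 17, 43527844 to 43579620), an ETS-family factor that ERK signalling induces, lay at 0.575, 1.11, 0.427 and 1.10 CPM under RMC-7977 and at 15.1, 12.001, 9.19 and 7.58 CPM under cobimetinib. Every RMC-7977 tumour was far below every cobimetinib tumour, and the Vehicle tumours spanned 6.74, 20.7 and 30.1 CPM. The log2 fold change was −3.73 ± 0.35 (edgeR quasi-likelihood adjusted p = 0.00199) and −3.51 without RMC-7977 replicate 3. ETV4 overlaps DHX8 in the annotation, and the strand setting of the counting is not given in the sources used here. ETV5 (ENSG00000244405, chromosome 3, 186046308 to 186110318), its close relative, lay at 1.44, 1.11, 1.45 and 3.73 CPM under RMC-7977 and 14.5, 12.6, 9.66 and 10.4 CPM under cobimetinib. RMC-7977 replicate 4 was the highest of its group but below all cobimetinib tumours, and the Vehicle values were 6.66, 12.9 and 18.9 CPM. Its log2 fold change was −2.58 ± 0.36 (adjusted p = 0.0104; −2.45 without RMC-7977 replicate 3).

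DUSP6 (ENSG00000139318, chromosome 12, 89347232 to 89353271), the cytoplasmic phosphatase that switches ERK off, lay at 1.44, 1.03, 1.79 and 1.45 CPM under RMC-7977 and 5.68, 6.68, 4.05 and 7.204 CPM under cobimetinib. Both drugs were below the Vehicle tumours (8.12, 21.2 and 26.5 CPM), and the drugs did not overlap (−2.04 ± 0.29, adjusted p = 0.0106). SPRY4 (ENSG00000187678, chromosome 5, 142310427 to 142326455), an inhibitor of signalling from growth factor receptors to RAS, lay at 0.288, 0.238, 0 and 0.690 CPM under RMC-7977 and 3.19, 2.30, 2.57 and 3.85 CPM under cobimetinib. RMC-7977 replicate 3, the library short of low counts described above, had no read of it, so that value is uncertain. The cobimetinib values lay within the Vehicle range (1.95, 3.17 and 5.45 CPM). The log2 fold change of SPRY4 was −3.20 ± 0.57 (adjusted p = 0.0237) and −2.80 without RMC-7977 replicate 3. DUSP4, a nuclear MAP kinase phosphatase, lay at 104, 163, 109 and 128 CPM under RMC-7977 and 281, 278, 192 and 262 CPM under cobimetinib, both below the Vehicle tumours (305, 432 and 513 CPM). It differed by −1.01 ± 0.18 (adjusted p = 0.0247).

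Of the other 4 tested members, PHLDA1 and SPRY2 did not overlap between the drugs but did not pass the test, and CCND1 and EPHA2 overlapped. PHLDA1, a pleckstrin-homology-like protein, lay at 1.25, 1.27, 1.62 and 1.24 CPM under RMC-7977 and 4.54, 2.30, 2.16 and 2.02 CPM under cobimetinib (−1.03 ± 0.35, adjusted p = 0.182). SPRY2, another Sprouty protein, lay at 14.3, 15.7, 16.6 and 14.1 CPM and 22.8, 19.2, 19.998 and 21.5 CPM (−0.46 ± 0.14, adjusted p = 0.144). CCND1, which encodes cyclin D1, lay at 98.6, 125, 87.2 and 132 CPM under RMC-7977 and 163, 118, 97.2 and 110.4 CPM under cobimetinib (−0.15 ± 0.19, adjusted p = 0.783). EPHA2, an ephrin receptor, lay at 54.5, 53.0, 38.7 and 70.1 CPM and 59.7, 80.2, 44.9 and 61.1 CPM (−0.18 ± 0.21, adjusted p = 0.746), and its sign turned with GC correction (0.07). The sign for CCND1 turned without cobimetinib replicate 1 (0.03). The mean log2 CPM of the 9 genes was 2.57, 2.68, 2.39 and 3.02 in the RMC-7977 tumours and 4.47, 4.25, 3.92 and 4.17 in the cobimetinib tumours, with no overlap. It was 4.34, 4.40, 4.91, 5.38, 4.95 and 5.01 in the Vehicle tumours, so cobimetinib replicate 1 lay above the lowest Vehicle tumours.

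ETV4 kept its call with any 1 of the 8 tumours left out. Without RMC-7977 replicate 1 the other 4 called genes lost theirs (adjusted p 0.0553 to 0.103), and without cobimetinib replicate 2 DUSP6, SPRY4 and DUSP4 did (0.0506 to 0.0896). SPRY4 and DUSP4 also lost them without cobimetinib replicate 1 (0.0846 to 0.0936) or 4 (0.0831 to 0.0847), SPRY4 without RMC-7977 replicate 2 (0.101) and DUSP4 without RMC-7977 replicate 4 (0.0616). With all 22 tumours in the fit DUSP6 and DUSP4 were not called (0.113 to 0.201).

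**Figure D3:**
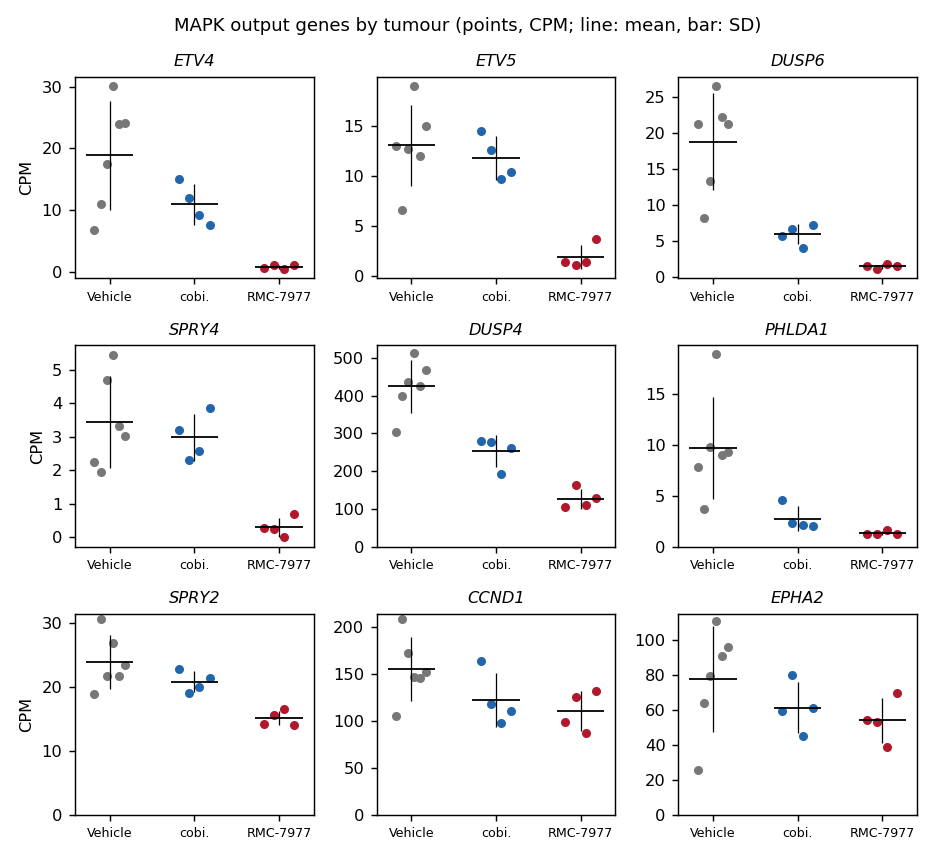
CPM (vertical axes) of the 9 tested MAPK output genes in the 6 Vehicle, 4 cobimetinib and 4 RMC-7977 tumours, 1 point a tumour, with the group mean (horizontal line) and SD (vertical bar). The RMC-7977 and cobimetinib points do not overlap for ETV4, ETV5, DUSP6, SPRY4, DUSP4, PHLDA1 and SPRY2, and do for CCND1 and EPHA2.

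Beyond these, DUSP1 was lower among the ERK phosphatases and feedback inhibitors, FOSL1 and EGR1 among the immediate early genes, and AREG and EREG among the ligands of the EGF receptor family. The feedback list had 4 of 21 tested members lower and none higher, DUSP1 beside DUSP6, SPRY4 and DUSP4 already described (median −0.30), where 0.624% of all genes were called lower. Of 18 tested immediate early genes 2 were lower and none higher (median −0.29), and of 7 tested ligands 2 were lower and none higher (median −0.25). With the replicate block the counts were 7 lower of 21, 6 lower and 2 higher of 18, and 3 lower of 7, against 4.83% of all genes lower and 5.24% higher. In the fit that left out RMC-7977 replicate 3 (1.72% of all genes lower and 2.55% higher), the immediate early list had 3 lower and 1 higher, with MYC lower and ATF3 higher added.

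DUSP1, a phosphatase of several MAP kinases, lay at 267, 235, 273 and 359 CPM under RMC-7977 and 511, 747, 526 and 614 CPM under cobimetinib. The cobimetinib values reached beyond the Vehicle range (272, 416 and 559 CPM), and the drugs differed by −1.08 ± 0.18 (edgeR quasi-likelihood adjusted p = 0.0197). FOSL1, a subunit of the AP-1 transcription factor, lay at 0.384, 1.59, 0.427 and 1.73 CPM and 6.32, 6.52, 3.65 and 5.75 CPM (−2.38 ± 0.45, adjusted p = 0.0298). EGR1, a zinc-finger factor induced within minutes of ERK activity, lay at 0.192, 0.318, 0.427 and 2.35 CPM and 8.23, 9.54, 3.11 and 5.56 CPM. RMC-7977 replicate 4 was the highest of its group, yet below all cobimetinib tumours (−2.92 ± 0.64, adjusted p = 0.0477). MYC lay at 50.6, 49.5, 79.4 and 61.0 CPM and 169, 134, 82.6 and 108 CPM and narrowly missed the call (−1.04 ± 0.23, adjusted p = 0.051), with 0.00849 without RMC-7977 replicate 3.

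AREG, which encodes the EGF receptor ligand amphiregulin, lay at 4.99, 8.65, 5.38 and 6.83 CPM under RMC-7977 and 13.7, 17.3, 19.1 and 17.7 CPM under cobimetinib (−1.39 ± 0.21, adjusted p = 0.0152). EREG, which encodes epiregulin, lay at 11.6, 7.62, 18.9 and 10.8 CPM and 26.8, 41.7, 27.9 and 21.7 CPM (−1.27 ± 0.28, adjusted p = 0.0487). Neither overlapped between the drugs, and the Vehicle medians were 23.5 CPM for AREG and 46.4 CPM for EREG. HBEGF, which encodes another ligand, lay at 3.36, 2.54, 0.768 and 2.55 CPM and 5.89, 6.28, 3.65 and 6.19 CPM and did not pass the test (−1.25 ± 0.38, adjusted p = 0.135), but did with the replicate block (0.0114). All 5 of DUSP1, FOSL1, EGR1, AREG and EREG lost their calls without RMC-7977 replicate 1 (adjusted p 0.0636 to 0.157), cobimetinib replicate 2 (0.0612 to 0.141) or cobimetinib replicate 4 (0.0534 to 0.106). Without RMC-7977 replicate 2 (0.0706 to 0.152) or cobimetinib replicate 1 (0.0544 to 0.142), all but AREG did, and EREG also did without RMC-7977 replicate 4 (0.122) or cobimetinib replicate 3 (0.0746). With all 22 tumours in the fit EGR1, FOSL1, AREG and EREG were not called (0.116 to 0.35), nor were EGR1, AREG and EREG with the Vehicle tumours in the fit (0.0542 to 0.242). With all tumours but Trametinib replicate 4, AREG and EREG were not called (0.121 to 0.165), and with RLE scaling EREG was not (0.0505).

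Genes of the targeted pathway itself mostly did not pass the test with 8 tumours, in which 1.62% of all genes tested were called. None of 13 tested RAS family GTPases, 16 RAF, MEK and ERK kinases and scaffolds or 17 receptor tyrosine kinases was called. Of 20 genes for SHP2, adaptors and factors that load or unload RAS, 1 was higher, GAB1, against 0.994% of all genes. Without RMC-7977 replicate 3 (2.55% of all genes higher and 1.72% lower) the receptor list had ERBB2, ERBB3 and ERBB4 higher and AXL lower. With the replicate block it had ERBB2, ERBB3 and ERBB4 higher and FGFR4 lower. The block also called RRAS higher, GAB1, GAB2 and SOS2 higher with IRS2 lower among the adaptors and RAS factors, and 2 higher and 1 lower of the 16 kinases and scaffolds, against 5.24% of all genes higher and 4.83% lower. Of 9 cyclophilins, PPIF was lower, against 0.624% of all genes.

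RIT1 (ENSG00000143622, chromosome 1, 155897808 to 155911404) lay at 144, 149, 162 and 125 CPM under RMC-7977 and 121, 105, 141 and 118 CPM under cobimetinib. The groups overlapped, and the log2 fold change was 0.26 ± 0.14 (edgeR quasi-likelihood adjusted p = 0.428). NRAS lay at 85.1, 117, 139.9 and 82.4 CPM and 72.0, 72.4, 129 and 87.1 CPM, with replicate 3 the highest of both groups (0.23 ± 0.23, adjusted p = 0.698). HRAS lay at 47.7, 41.6, 37.3 and 38.0 CPM and 70.2, 48.6, 38.0 and 46.6 CPM (−0.31 ± 0.19, adjusted p = 0.488), and its sign turned with GC correction (0.12). MAP2K1, which encodes MEK1, lay at 54.4, 61.3, 61.6 and 62.8 CPM and 54.5, 59.4, 49.9 and 54.0 CPM (0.14 ± 0.12, adjusted p = 0.657). MAP2K2, which encodes MEK2, lay at 189, 183, 133 and 185 CPM and 230.5, 203, 120.2 and 175 CPM, lowest in replicate 3 of both groups (−0.08 ± 0.20, adjusted p = 0.896), and its sign turned without RMC-7977 replicate 3 (0.03) and with GC correction (0.21). PTPN11, which encodes SHP2, lay at 80.3 to 98.6 CPM and 83.4 to 102 CPM (−0.05 ± 0.13, adjusted p = 0.892), and its sign turned without cobimetinib replicate 1. SNAPC5 overlaps MAP2K1, RPL6 overlaps PTPN11 and LTO1 overlaps CCND1 in the annotation. PPIA, which encodes the cyclophilin A that RMC-7977 binds and has many processed copies in the genome, lay at 1697, 1685, 2117 and 1519 CPM and 2072, 1630.0, 2232 and 1728 CPM (−0.13 ± 0.17, adjusted p = 0.79).

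GAB1, an adaptor to which SHP2 binds, was measured at 35.1, 34.6, 42.4 and 32.8 CPM under RMC-7977 and 18.2, 22.02, 23.8 and 24.8 CPM under cobimetinib. All RMC-7977 tumours were above all cobimetinib and Vehicle tumours (17.9, 20.2 and 23.2 CPM), with a log2 fold change of 0.71 ± 0.15 (edgeR quasi-likelihood adjusted p = 0.0448). SOS2, an exchange factor for RAS, did not overlap either (74.8 to 80.5 against 45.7 to 61.1 CPM) but did not pass (0.50 ± 0.13, adjusted p = 0.093, and 0.00968 with the replicate block). ERBB3, a receptor that signals to PI3K, lay at 175, 162, 82.4 and 177 CPM and 87.0, 113, 74.4 and 96.8 CPM. RMC-7977 replicate 3 was the lowest of its group and inside the cobimetinib range, and the adjusted p was 0.185 with it, 0.00754 without it and 0.00854 with the replicate block (log2 fold change 0.68 ± 0.23 with it and 0.88 without it). ERBB4, another receptor of the family, lay at 10.3, 8.34, 2.22 and 9.04 CPM and 1.99, 1.99, 2.30 and 3.223 CPM (1.64 ± 0.41, adjusted p = 0.082, and 1.94, 0.00105 without RMC-7977 replicate 3; 0.0139 with the block). AXL, a receptor tied to drug tolerance, lay at 8.73, 14.77, 16.0 and 6.70 CPM and 44.3, 36.8, 14.2 and 28.6 CPM (−1.42 ± 0.36, adjusted p = 0.0827, and 0.0297 without RMC-7977 replicate 3). PPIF, which encodes the mitochondrial cyclophilin D, lay at 59.4, 67.3, 69.9 and 59.5 CPM and 114, 108, 97.5 and 95.9 CPM with no overlap (−0.70 ± 0.13, adjusted p = 0.0242).

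TSC22D3, PIK3IP1 and FBXO32 were higher under RMC-7977 among genes linked to FOXO factors, which PI3K signalling restrains. They were 3 of 21 tested members, against 0.994% of all genes, and none was lower (median 0.48, with 17 members above 0, as were 7791 of the 16193 genes tested). There were 7 higher and 0 lower without RMC-7977 replicate 3 (2.55% of all genes higher), and with the replicate block 9 higher and 2 lower (5.24% and 4.83% of all genes). Kruppel-like factors, a family of zinc-finger regulators, showed 3 of 10 tested members higher (KLF2, KLF3 and KLF7) and none lower (median 0.41). With the replicate block 6 of the 10 were higher. SOCS2 was the only called member of 12 SOCS and STAT genes.

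TSC22D3, which encodes a leucine zipper protein induced by glucocorticoids and by FOXO3, lay at 585, 459.8, 378 and 456 CPM under RMC-7977 and 94.2, 155, 112 and 157 CPM under cobimetinib. The lowest RMC-7977 tumour was far above the highest of the Vehicle tumours (83.8, 108 and 177 CPM), and the log2 fold change was 1.86 ± 0.21 (edgeR quasi-likelihood adjusted p = 0.00338). PIK3IP1, an inhibitor of PI3K, lay at 31.2, 39.9, 28.8 and 35.1 CPM and 11.2, 14.9, 8.58 and 17.8 CPM (1.36 ± 0.22, adjusted p = 0.0172). FBXO32, a ubiquitin ligase subunit, lay at 25.2, 23.7, 20.4 and 19.4 CPM and 7.31, 12.6, 6.15 and 9.10 CPM (1.34 ± 0.22, adjusted p = 0.0196). Neither overlapped between the drugs, and the cobimetinib tumours overlapped the Vehicle range (10.9, 16.8 and 20.6 CPM for PIK3IP1 and 4.31, 10.2 and 15.0 CPM for FBXO32). TXNIP, which restrains glucose uptake, lay at 369.8, 451, 239 and 583 CPM and 98.3, 243, 127 and 195 CPM and did not pass with 8 tumours (1.31 ± 0.32, adjusted p = 0.0731), but did without RMC-7977 replicate 3 (0.00867) and with the replicate block (0.000295).

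SOCS2, a brake on cytokine and growth hormone receptors, lay at 17.3, 11.8, 16.98 and 13.1 CPM under RMC-7977 and 7.24, 4.77, 4.39 and 5.50 CPM under cobimetinib. Every RMC-7977 tumour was above every Vehicle tumour (2.35, 4.51 and 5.81 CPM), and the drugs differed by 1.43 ± 0.22 (edgeR quasi-likelihood adjusted p = 0.0152). KLF3, a repressor, lay at 134, 134, 134 and 121 CPM and 71.7, 86.4, 82.6 and 86.3 CPM (0.68 ± 0.12, adjusted p = 0.0242), and KLF3-AS1 overlaps it. KLF7 lay at 24.9, 29.5, 25.3 and 24.1 CPM and 12.5, 15.2, 16.3 and 15.1 CPM (0.81 ± 0.15, adjusted p = 0.024). TSC22D3 kept its call in each of the 8 fits with a tumour left out. GAB1, KLF3 and KLF7 lost theirs without RMC-7977 replicate 1 (adjusted p 0.064 to 0.133 with PIK3IP1, FBXO32 and SOCS2), 2 or 4 and without cobimetinib replicate 1, 2 or 4, and GAB1 also without cobimetinib replicate 3 (0.0619). PIK3IP1 did without RMC-7977 replicate 2 or cobimetinib replicate 1 or 2, FBXO32 without RMC-7977 replicate 2 or cobimetinib replicate 1 or 4, and SOCS2 without cobimetinib replicate 2 or 4, with a highest adjusted p of 0.136 over these fits. With all 22 tumours in the fit GAB1, FBXO32, SOCS2, KLF3 and KLF7 were not called (0.0501 to 0.272), and with the Vehicle tumours in the fit FBXO32 and KLF7 were not (0.0545 to 0.141). GAB1 was not called with scaling by library size (0.0838), nor KLF7 with all tumours but Trametinib replicate 4 (0.102).

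The 12 largest calls in each direction, by the rule given under the processing, ranged from −2.80 (TGM2) to −1.57 (DNAH17) on the lower side and from 1.96 (SYBU) to 2.98 (ALDH1A1) on the higher side, on the log2 scale. All 24 were called without RMC-7977 replicate 3, with GC correction and with DESeq2. With the replicate block 23 were called. The exception was CEACAM6 (adjusted p = 0.0896).

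On the lower side, TGM2 (ENSG00000198959, chromosome 20, 38127387 to 38166578), an enzyme that cross-links proteins, lay at 5.75, 23.0, 8.70 and 29.7 CPM under RMC-7977 and 86.8, 170.4, 99.3 and 116 CPM under cobimetinib. The Vehicle tumours ranged more widely (9.18, 169 and 412 CPM), while the drugs did not overlap (−2.80 ± 0.45, edgeR quasi-likelihood adjusted p = 0.0172). TGM2 overlaps RPRD1B. OASL (ENSG00000135114, chromosome 12, 121019111 to 121039242), an oligoadenylate synthetase-like protein induced by interferon, lay at 2.01, 3.65, 2.22 and 2.90 CPM and 16.1, 10.7, 10.3 and 17.5 CPM (−2.33 ± 0.27, adjusted p = 0.00393), with Vehicle at 2.04, 4.42 and 14.6 CPM. PTGS1 (ENSG00000095303, chromosome 9, 122370530 to 122395703), the constitutive cyclooxygenase of prostaglandin synthesis, lay at 2.30, 2.38, 2.82 and 3.66 CPM and 14.76, 18.3, 7.70 and 10.9 CPM (−2.20 ± 0.30, adjusted p = 0.00893). All RMC-7977 values were below the Vehicle range (13.4, 22.8 and 33.3 CPM). LAMC3 (ENSG00000050555, chromosome 9, 131009082 to 131094473), a laminin chain of basement membranes, lay at 5.27, 5.399, 2.22 and 4.83 CPM and 20.2, 27.6, 8.78 and 22.5 CPM (−2.15 ± 0.36, adjusted p = 0.0196), and replicate 3 was the lowest in both groups.

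STMN3 (ENSG00000197457, chromosome 20, 63639705 to 63657682), a stathmin that binds tubulin, lay at 2.40, 4.13, 3.93 and 4.14 CPM under RMC-7977 and 13.4, 15.4, 16.7 and 13.7 CPM under cobimetinib. RMC-7977 replicate 1 was the lowest, and the difference was −2.01 ± 0.21 (edgeR quasi-likelihood adjusted p = 0.00318). TFPI2 (ENSG00000105825, chromosome 7, 93885396 to 93890991), a secreted protease inhibitor whose locus overlaps GNGT1, lay at 6.71, 16.99, 18.4 and 6.90 CPM and 41.8, 39.5, 65.7 and 43.5 CPM (−1.96 ± 0.34, adjusted p = 0.0204). PAPPA (ENSG00000182752, chromosome 9, 116153804 to 116402322), a metalloprotease that frees insulin-like growth factors from a binding protein, lay at 7.00, 7.15, 6.31 and 6.28 CPM and 25.0, 26.3, 24.5 and 24.8 CPM. The tumours within each drug barely differed, and PAPPA had the smallest adjusted p of all genes tested (−1.91 ± 0.14, adjusted p = 0.000504), with Vehicle at 17.7, 31.8 and 43.9 CPM.

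MFSD2A (ENSG00000168389, chromosome 1, 39955112 to 39969968), a transporter of lysophospholipids, lay at 3.26, 2.94, 4.52 and 1.86 CPM under RMC-7977 and 16.2, 11.52, 9.12 and 9.99 CPM under cobimetinib (−1.90 ± 0.29, edgeR quasi-likelihood adjusted p = 0.0152). CYP24A1 (ENSG00000019186, chromosome 20, 54153449 to 54173973), which breaks down active vitamin D, lay at 2.59, 5.399, 2.13 and 4.42 CPM and 8.23, 17.8, 15.0 and 13.6 CPM (−1.90 ± 0.33, adjusted p = 0.0205). Both drugs lay below every Vehicle tumour for CYP24A1 (18.4, 30.1 and 37.6 CPM). The axonemal dynein chains DNAH5 (ENSG00000039139, chromosome 5, 13690331 to 13944543) and DNAH17 (ENSG00000187775, chromosome 17, 78423697 to 78577394) completed the list. DNAH5 lay at 2.30, 3.10, 1.88 and 2.90 CPM and 7.52, 5.48, 7.97 and 9.61 CPM (−1.58 ± 0.26, adjusted p = 0.0173). DNAH17, which overlaps PGS1, lay at 8.34, 8.97, 4.61 and 9.04 CPM and 23.5, 28.1, 15.9 and 24.8 CPM (−1.57 ± 0.25, adjusted p = 0.016), with replicate 3 the lowest in both groups. ETV5, already described, is the remaining member of these 12.

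OASL, STMN3 and PAPPA kept their calls with any 1 of the 8 tumours left out. Without RMC-7977 replicate 1 the other 9 lost theirs (0.0548 to 0.0862, adjusted p of the edgeR quasi-likelihood test). TGM2, LAMC3, TFPI2 and DNAH17 also lost them without RMC-7977 replicate 2 (0.0536 to 0.0673 with MFSD2A and DNAH5), cobimetinib replicate 1 (0.0544 to 0.0653 with MFSD2A and DNAH5), cobimetinib replicate 2 (0.0583 to 0.0798 with MFSD2A and CYP24A1) or cobimetinib replicate 4 (0.0534 to 0.0651 with CYP24A1 and DNAH5). With all 22 tumours in the fit TGM2, OASL, LAMC3, STMN3, TFPI2, MFSD2A, DNAH5 and DNAH17 were not called (0.0587 to 0.464). With the Vehicle tumours in the fit TGM2, OASL, LAMC3, STMN3, TFPI2 and DNAH17 were not called (0.0541 to 0.165). Tested against a log2 fold change of 0.5, LAMC3, TFPI2, MFSD2A, CYP24A1, DNAH5 and DNAH17 were not called.

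On the higher side, ALDH1A1 (ENSG00000165092, chromosome 9, 72900662 to 73080442), an aldehyde dehydrogenase that makes retinoic acid, lay at 52.9, 48.4, 14.3 and 24.2 CPM under RMC-7977 and 6.81, 3.26, 3.24 and 4.36 CPM under cobimetinib. RMC-7977 replicate 3 was the lowest of its group and above every cobimetinib tumour, with a log2 fold change of 2.98 ± 0.42 (edgeR quasi-likelihood adjusted p = 0.0106; 3.24 without that replicate). B3GNT6 (ENSG00000198488, chromosome 11, 77034398 to 77041973), a glycosyltransferase of gut mucins, lay at 13.7, 26.8, 4.61 and 29.3 CPM and 4.04, 2.54, 1.01 and 4.30 CPM (2.64 ± 0.55, adjusted p = 0.0432), and its lowest RMC-7977 value, in replicate 3, was just above the highest cobimetinib value. MUC15 (ENSG00000169550, chromosome 11, 26559033 to 26572233), a membrane mucin, lay at 9.78, 12.9, 10.4 and 7.80 CPM and 2.98, 1.59, 2.91 and 1.201 CPM (2.23 ± 0.31, adjusted p = 0.011). CEACAM6 (ENSG00000086548, chromosome 19, 41750977 to 41772208), an epithelial adhesion glycoprotein with near-identical relatives whose reads the counting may have split, lay at 774, 1711, 230.2 and 878 CPM and 129, 179, 162 and 229.6 CPM. Replicate 3 of RMC-7977 barely exceeded the highest cobimetinib value (2.36 ± 0.47, adjusted p = 0.0354), and the Vehicle tumours overlapped both drugs (147, 408 and 957 CPM).

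FAM177B (ENSG00000197520, chromosome 1, 222737207 to 222750805) lay at 61.8, 59.7, 35.0 and 56.7 CPM under RMC-7977 and 8.09, 10.9, 9.19 and 12.8 CPM under cobimetinib (2.38 ± 0.22, edgeR quasi-likelihood adjusted p = 0.00199). Every RMC-7977 tumour was above every Vehicle tumour (11.2, 15.0 and 32.4 CPM). MRC1 (ENSG00000260314, chromosome 10, 17809344 to 17911170), the macrophage mannose receptor, lay at 49.1, 11.99, 7.59 and 20.2 CPM and 4.47, 4.05, 3.11 and 3.85 CPM (2.52 ± 0.50, adjusted p = 0.0354), with Vehicle replicate 2 as high as 41.8 CPM. The myeloid markers AIF1 and C1QA had no count in any tumour on either drug or Vehicle. CD68 had none under RMC-7977 and at most 0.0795 CPM under cobimetinib. CD14 lay at 4.41 to 7.15 CPM under RMC-7977 and 5.74 to 15.1 CPM under cobimetinib. CD163 went the other way, at 0.171 to 0.556 CPM and 0 to 0.203 CPM. The summed level of the 13 myeloid markers was 7.38 to 11.3 CPM under RMC-7977 and 11.49 to 23.1 CPM under cobimetinib. ADGRF1 (ENSG00000153292, chromosome 6, 46997703 to 47042363), an adhesion receptor coupled to G proteins, lay at 26.8, 33.2, 19.5 and 19.2 CPM and 4.19, 8.11, 3.99 and 4.11 CPM (2.28 ± 0.28, adjusted p = 0.00492). ATP10B (ENSG00000118322, chromosome 5, 160563120 to 160852214), a lipid flippase, lay at 13.8, 17.5, 4.35 and 11.53 CPM and 4.04, 2.70, 1.28 and 2.34 CPM (2.19 ± 0.43, adjusted p = 0.0351), and replicate 3 was the lowest in both groups.

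HDAC9 (ENSG00000048052, chromosome 7, 18086949 to 19002416), a class IIa histone deacetylase, lay at 15.4, 12.5, 13.6 and 9.94 CPM under RMC-7977 and 3.26, 2.30, 3.45 and 2.28 CPM under cobimetinib (2.18 ± 0.23, edgeR quasi-likelihood adjusted p = 0.00318). VTCN1 (ENSG00000134258, chromosome 1, 117143587 to 117210960), a ligand that restrains T cells, lay at 19.4, 23.3, 15.1 and 19.5 CPM and 2.13, 3.58, 4.39 and 6.95 CPM (2.17 ± 0.31, adjusted p = 0.0113). For both genes the RMC-7977 tumours were above the Vehicle range, which was 2.75, 3.76 and 5.29 CPM for HDAC9 and 2.40, 7.23 and 9.50 CPM for VTCN1. KLF2 (ENSG00000127528, chromosome 19, 16324817 to 16327874), the Kruppel-like factor with the largest difference, lay at 39.0, 46.9, 18.9 and 45.1 CPM and 5.53, 10.97, 6.28 and 11.8 CPM (2.12 ± 0.32, adjusted p = 0.0152). SYBU, which links kinesin to its cargo, lay at 46.5, 39.1, 31.1 and 52.9 CPM and 9.01, 12.2, 8.92 and 13.4 CPM (1.96 ± 0.21, adjusted p = 0.00318).

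FAM177B, ADGRF1, HDAC9 and SYBU kept their calls with any 1 of the 8 tumours left out. B3GNT6, MRC1, CEACAM6 and ATP10B lost theirs without any 1 of the others but RMC-7977 replicate 3 (without RMC-7977 replicate 2, for example, 0.0563 to 0.136 with KLF2, adjusted p of the edgeR quasi-likelihood test). KLF2 was not called when RMC-7977 replicate 1 or 2 or cobimetinib replicate 1 or 2 was left out, and ALDH1A1, MUC15 and VTCN1 without RMC-7977 replicate 1 (0.0504 to 0.115 with the other 5) or cobimetinib replicate 2 (0.0517 to 0.131 with the other 5). With all 22 tumours in the fit MRC1, CEACAM6, ATP10B and KLF2 were not called (0.0595 to 0.116), and with no filter on low counts B3GNT6, MRC1, CEACAM6 and, on the lower side, TGM2 were not. With the Vehicle tumours in the fit B3GNT6, MRC1, CEACAM6, ATP10B and KLF2 were not called (0.0522 to 0.141). Tested against a log2 fold change of 0.5, B3GNT6, MRC1, CEACAM6 and ATP10B were not called.

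**Figure D4:**
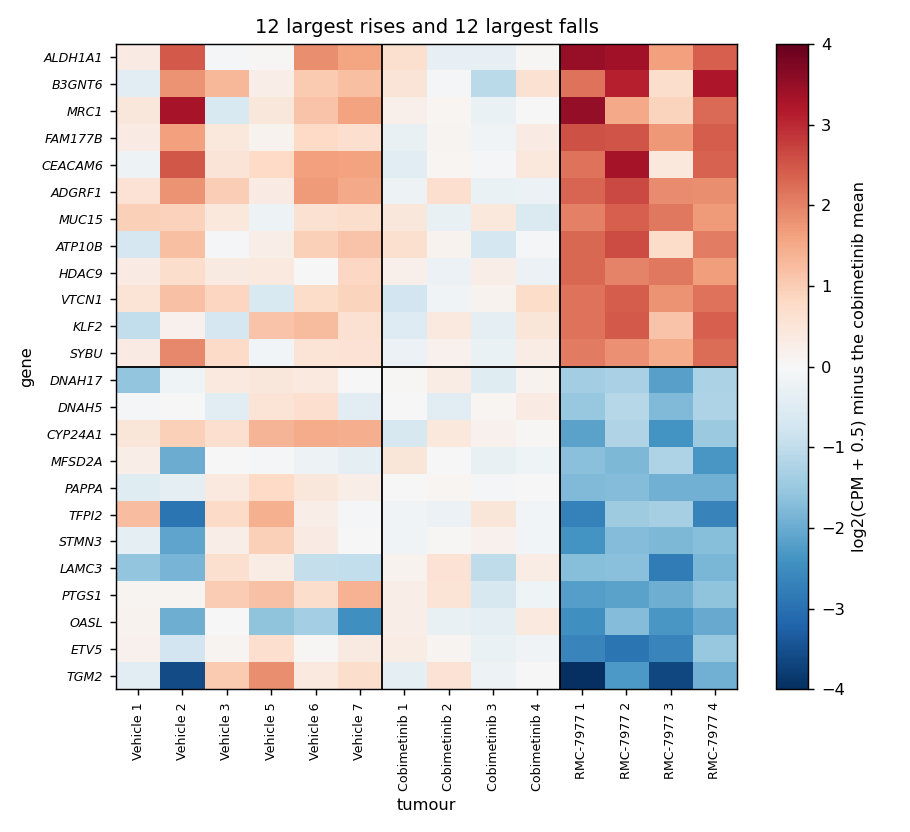
Log2(CPM + 0.5) minus the mean of the cobimetinib tumours (colour) for the 12 largest rises and 12 largest falls (rows) in the 6 Vehicle, 4 cobimetinib and 4 RMC-7977 tumours (columns). RMC-7977 replicate 3 is the lowest of its group for all of the rises but ADGRF1, MUC15 and HDAC9. Vehicle replicate 2 (9.18 CPM) lies as low as the RMC-7977 tumours for TGM2.

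The Vehicle tumours show where each drug stood. Of the 161 genes called higher, the Vehicle mean lay between the drugs for 142 (88.2%), below both for 18 and above both for 1. Of the 101 called lower it lay between for 43 (42.6%) and above both for 58 (57.4%). Among all tested genes with a positive fold change it lay between for 39.1%, and among those with a negative one between for 37.4% and above both for 40.7%. On the log scale the Vehicle mean was nearer to cobimetinib than to RMC-7977 for 144 of the 161 and 93 of the 101, 90.5% in all, against 61.3% of all genes tested. The Vehicle mean lay between the drugs for 12 of the 12 largest rises and for OASL, LAMC3 and MFSD2A alone among the 12 largest falls. Both drugs are set against the same Vehicle tumours here, and no test was made.

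Promoter sequence was searched in RefSeq windows (GRCh38.p14) that run from 250 bases before to 50 after a gene's start. They were matched for 10659 of the tested genes, 111 of those called higher and 65 of those called lower. The AP-1 motif TGANTCA, on either strand, was in 4.81% of all windows, 12.6% of those called higher (14 genes) and 10.8% of those called lower (7 genes). Its narrower form TGACTCA, every match of which is also a match of TGANTCA, was in 3.33%, 6.31% and 9.23%, so that with it the larger share was among the lower calls. The E2F motifs TTCCCGC or TTGGCGC were in 14.4% of all, 8.11% of those called higher and 6.15% of those called lower. The ETS motif CCGGAAG was in 18.7% of all, 5.41% of those called higher and 4.62% of those called lower. The FOXO motif TGTTTAC was in 2.40%, 1.80% and 1.54%, and the E-box CACGTG in 9.96%, 9.01% and 4.62%. A match is a description of the letters, not a site of binding. Among the 24 largest calls, B3GNT6, MRC1, MUC15, SYBU, TGM2, ETV5, OASL, LAMC3, CYP24A1 and DNAH17 had no matched window and were not searched. VTCN1 had an AP-1 match near or after its start. Matches lay upstream of the RefSeq start in FAM177B, ATP10B, HDAC9, TFPI2 and DNAH5, genes from both directions. RefSeq starts can differ from the gene positions given above, and the HDAC9 and TFPI2 matches lie inside those positions. For 3 of them that lie outside the annotated gene, 41 bases around the match are shown 5′ to 3′ on the strand of the gene, with the motif in capitals. FAM177B holds it 46 bases before its RefSeq start (chr1:222737139-222737179, plus strand), ATP10B 127 bases before (chr5:160852315-160852355, minus strand) and DNAH5 151 bases before (chr5:13944816-13944856, minus strand).
FAM177B: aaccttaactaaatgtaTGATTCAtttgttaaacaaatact
ATP10B: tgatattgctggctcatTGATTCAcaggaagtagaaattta
DNAH5: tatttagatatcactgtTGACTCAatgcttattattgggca
FAM177B and ATP10B, both called higher, carry the form TGATTCA, and DNAH5, called lower, carries TGACTCA. TFPI2, also called lower, carries TGAATCA, which reads TGATTCA on the other strand. The form therefore did not split by direction among these genes.

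Interferon-stimulated and inflammatory genes contributed calls on the lower side. OASL, IFIT2 and IFITM3 were 3 of 23 tested interferon-stimulated genes, with none higher (median −0.16), against 0.624% of all genes lower. CXCL2 was 1 of 12 tested cytokines and chemokines, of which 11 had a negative fold change (median −0.64), as did 8402 of the 16193 genes tested. With RMC-7977 replicate 3 left out, where 1.72% of all genes were lower, the counts were 4 lower of the interferon list and 3 lower of the cytokine list, which added IFIT3 to the former and IL6 and CXCL8 to the latter. With the replicate block the interferon list had 6 lower and 2 higher and the cytokine list 2 lower, against 4.83% of all genes lower and 5.24% higher. None of 11 tested genes for MHC class I and antigen processing was called.

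IFIT2, an interferon-induced RNA-binding protein that overlaps LIPA, lay at 7.10, 9.61, 11.01 and 10.0 CPM under RMC-7977 and 19.2, 18.04, 22.8 and 35.0 CPM under cobimetinib (−1.33 ± 0.24, edgeR quasi-likelihood adjusted p = 0.0235). IFITM3, a membrane protein that restricts viral entry and has close paralogs, lay at 73.5, 143, 172 and 149.6 CPM and 250.3, 310.2, 254 and 303 CPM (−1.06 ± 0.23, adjusted p = 0.0477), and lost its call with GC correction (0.121). CXCL2, a chemokine for neutrophils, lay at 3.26, 3.26, 4.95 and 6.97 CPM and 13.7, 13.0, 9.86 and 9.29 CPM (−1.30 ± 0.28, adjusted p = 0.0437). None of these overlapped between the drugs.

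Differentiation and adhesion genes were called in small numbers with 8 tumours, in which 0.994% of all genes were higher and 0.624% lower. KRT19 was higher among 13 tested keratins, MUC15 among 10 tested gastric and goblet genes (median 0.62), SNAI1 lower among 8 tested mesenchymal genes and TEAD4 lower among 14 tested YAP/TEAD genes. No alveolar type 2 or lung lineage gene of 14 tested was called, and none of 6 plasminogen and matrix protease genes. Without RMC-7977 replicate 3 (2.55% of all genes higher and 1.72% lower) the gastric and goblet list had 4 higher, with MUC16, TFF1 and TFF3 added. SLC34A2 was then higher in the lung list. In that fit the mesenchymal list had FN1 higher beside SNAI1 lower, the YAP/TEAD list AXL, TEAD4 and NT5E lower, and the keratins KRT6B lower beside KRT19 higher. With the replicate block (5.24% of all genes higher and 4.83% lower) the mesenchymal list had 1 higher and 2 lower, the YAP/TEAD list 1 higher and 3 lower, the keratins 2 higher and 1 lower, the gastric and goblet list 3 higher and the lung list 3 higher. FN1, which encodes fibronectin, lay at 43.0, 51.5, 19.0 and 46.4 CPM and 31.9, 31.9, 16.0 and 25.2 CPM (0.61 ± 0.30, edgeR quasi-likelihood adjusted p = 0.377, 0.0403 without RMC-7977 replicate 3 and 0.016 with the block).

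KRT19, a keratin of simple epithelia, lay at 1734, 1864, 1034 and 1746 CPM under RMC-7977 and 483, 749, 517 and 796 CPM under cobimetinib. All RMC-7977 tumours exceeded all cobimetinib tumours, though replicate 3 lay within the Vehicle range (577, 810.3 and 1178 CPM), and the log2 fold change was 1.33 ± 0.24 (edgeR quasi-likelihood adjusted p = 0.0237). TFF1, a trefoil peptide of the stomach, lay at 245, 214, 165 and 267 CPM and 66.3, 106, 134 and 143 CPM and did not pass with 8 tumours (0.99 ± 0.24, adjusted p = 0.0719), but did without RMC-7977 replicate 3 (0.0156) and with the replicate block (0.0168). AGR2, a secretory-pathway protein of mucous cells, lay at 1148, 1129, 1108 and 1129 CPM and 514, 508, 1011 and 768 CPM, nearly constant under RMC-7977 (0.69 ± 0.22, adjusted p = 0.159, and 0.0137 with the replicate block). SNAI1, a repressor of epithelial genes, lay at 1.34, 2.14, 0.768 and 1.86 CPM and 4.47, 8.42, 4.12 and 3.85 CPM (−1.75 ± 0.37, adjusted p = 0.0452). TEAD4, a DNA-binding partner of YAP, lay at 19.4, 23.3, 17.2 and 21.5 CPM and 41.2, 35.9, 28.8 and 30.9 CPM (−0.75 ± 0.16, adjusted p = 0.0473), and lost its call with GC correction (0.101). CDH1, which encodes E-cadherin, lay at 257, 298, 129 and 374 CPM and 159.9, 161, 81.1 and 136 CPM. RMC-7977 replicate 3 fell inside the cobimetinib range, and the adjusted p was 0.149 with it, 0.00939 without it and 0.00075 with the replicate block (0.98 ± 0.31 with it and 1.21 without it).

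CDKN2B was higher, the only call among 17 tested G1 cyclins, CDKs and CDK inhibitors, against 0.994% of all genes higher. None of 24 mitosis genes was called with 8 tumours, although 23 had a negative fold change (median −0.29), against 8402 of the 16193 genes tested, and 7 were lower without RMC-7977 replicate 3 (1.72% of all genes; CDK1, AURKA, MAD2L1, CDC20, CENPA, MKI67 and BIRC5). The replicate block called 5 of them lower (4.83% of all genes). None of 27 DNA replication genes was called (median −0.14), with MCM10 lower without RMC-7977 replicate 3. CDKN2B, which encodes the CDK inhibitor p15 and overlaps CDKN2B-AS1, lay at 50.1, 61.7, 54.3 and 57.1 CPM under RMC-7977 and 30.9, 42.1, 36.0 and 33.5 CPM under cobimetinib (0.65 ± 0.14, edgeR quasi-likelihood adjusted p = 0.0477). MKI67, the proliferation marker, lay at 404, 406, 429 and 362 CPM and 657, 656, 479.7 and 623 CPM with no overlap (−0.59 ± 0.15, adjusted p = 0.0861, and 0.0485 without RMC-7977 replicate 3; 0.0138 with the block). Under cobimetinib it lay above the Vehicle range (227, 376 and 469 CPM) in all 4 tumours.

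Metabolic and stress genes had few calls with 8 tumours, as did all genes tested (0.994% higher and 0.624% lower). CD36 was higher among 15 tested fatty acid and lipid genes, HSPB1 among 14 heat shock genes and WIPI1 among 19 autophagy and lysosome genes. With 8 tumours and no block, none was called among 24 cholesterol synthesis, 24 glycolysis and hypoxia, 19 NRF2, 18 ATF4, 21 ribosome biogenesis or 11 MYC network genes. With the replicate block, which called 5.24% of all genes higher and 4.83% lower, the glycolysis and hypoxia list had 4 higher (HK2 and BNIP3 among them) and 2 lower, the cholesterol list 5 higher and 1 lower and the NRF2 list 3 higher. The ATF4 list then had 9 lower, the ribosome biogenesis list 4 lower and the MYC network 1 lower (MXD3). In the fit that left out RMC-7977 replicate 3, which called 2.55% of all genes higher and 1.72% lower, BNIP3 was higher, PSPH and CEBPB of the ATF4 list and MYC were lower, and the other 3 lists had no call. The ATF4 list had a median of −0.56 with 17 of 18 members below 0, where 8402 of the 16193 genes tested were below 0. The BCL2 family had none called of 14, with BMF higher without RMC-7977 replicate 3 (1.19 ± 0.34 with 8 tumours, adjusted p = 0.115, edgeR quasi-likelihood test, 0.0272 without it and 0.000688 with the block).

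CD36, a receptor for fatty acid uptake, lay at 204, 195, 217 and 241 CPM under RMC-7977 and 77.3, 80.7, 129 and 67.6 CPM under cobimetinib, with no overlap between them (1.27 ± 0.20, edgeR quasi-likelihood adjusted p = 0.016). HSPB1, a small heat shock protein, lay at 284, 291, 141 and 197 CPM and 101, 119, 69.6 and 87.9 CPM, lowest in replicate 3 of both groups (1.27 ± 0.24, adjusted p = 0.0328). WIPI1, which acts in autophagosome formation and overlaps ARSG, lay at 35.8, 37.0, 40.5 and 40.2 CPM and 17.6, 18.9, 24.3 and 24.4 CPM (0.85 ± 0.15, adjusted p = 0.0237). CEBPB, a transcription factor in the ATF4 list that CEBPB-AS1 overlaps, lay at 61.7, 68.4, 72.6 and 79.7 CPM and 123, 155, 86.6 and 118 CPM with no overlap and did not pass (−0.77 ± 0.18, adjusted p = 0.0589), but did with the replicate block (0.00414). With GC correction the log2 fold change of CEBPB was −0.29 (adjusted p = 0.567).

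Prostaglandin genes had PTGS1 and PTGES2 lower and PTGER4 higher among 10 tested, against 0.624% of all genes lower and 0.994% higher. PTGES2, a prostaglandin E synthase, lay at 60.2, 58.4, 56.6 and 59.2 CPM under RMC-7977 and 106, 85.7, 85.5 and 78.2 CPM under cobimetinib (−0.60 ± 0.13, edgeR quasi-likelihood adjusted p = 0.0485). With GC correction it was no longer called (0.735). PTGER4, a receptor for prostaglandin E, lay at 29.9, 21.9, 14.4 and 24.8 CPM and 7.73, 8.74, 8.44 and 11.2 CPM (1.33 ± 0.23, adjusted p = 0.0204), and TTC33 overlaps it. ID1, a target of BMP signalling, was lower, the only call among 11 tested BMP and WNT feedback genes, at 19.2, 27.6, 31.1 and 26.4 CPM and 54.1, 54.5, 46.1 and 43.7 CPM (−0.93 ± 0.17, adjusted p = 0.024), and lost its call with GC correction (0.133).

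Among markers of other cell types LAPTM5, a lysosomal protein of blood cells, was the only call with 8 tumours, at 0.0959, 0.397, 1.02 and 0.0690 CPM under RMC-7977 and 3.12, 2.94, 2.16 and 2.78 CPM under cobimetinib (−2.78 ± 0.59, edgeR quasi-likelihood adjusted p = 0.0443). The lymphocyte markers MS4A1 and NKG7 had no count in these 14 tumours, and the summed level of the list was 4.52 to 6.00 CPM under RMC-7977 and 1.77 to 4.99 CPM under cobimetinib. CD4, a T cell co-receptor that myeloid cells also carry and the only lymphocyte marker that passed the count filter, lay at 4.60, 5.24, 4.27 and 4.97 CPM and 1.06, 0.715, 1.62 and 4.30 CPM. It did not pass with 8 tumours (1.29 ± 0.46, adjusted p = 0.205) or without RMC-7977 replicate 3 (0.129), but was higher with the replicate block (0.0248). Summed endothelial markers were 24.2 to 80.2 CPM under RMC-7977 and 71.0 to 129 CPM under cobimetinib, mostly CLDN5 and PECAM1. Of the other endothelial markers, KDR, FLT1, ERG and EMCN reached at most 0.256 CPM, TEK 0.512 CPM and CDH5 1.45 CPM in the 8 tumours. ENG lay at 1.79 to 5.73 CPM under RMC-7977 and 4.40 to 6.12 CPM under cobimetinib. PECAM1 lay at 5.18, 5.96, 19.5 and 7.11 CPM and 25.1, 32.6, 19.6 and 18.1 CPM, did not pass with 8 tumours (−1.34 ± 0.39, adjusted p = 0.123) and was lower without RMC-7977 replicate 3 (−1.96, 0.000795). VWF, the von Willebrand factor of endothelium, lay at 3.07, 3.49, 1.19 and 2.35 CPM and 1.49, 0.874, 1.15 and 0.822 CPM, the opposite way (1.21 ± 0.39, adjusted p = 0.162), and was higher with that replicate left out (1.44, 0.0278). CLDN5, an endothelial tight junction protein, lay at 9.78, 22.5, 56.7 and 43.6 CPM and 39.1, 87.8, 77.8 and 77.2 CPM (−1.09 ± 0.44, adjusted p = 0.262). It was lower with the replicate block (0.0353), and its log2 fold change was −0.57 with GC correction (adjusted p = 0.642). Summed fibroblast and pericyte markers, nearly all COL1A1, were 95.1 to 215 CPM and 126 to 228 CPM. Neither COL1A2 nor COL3A1 exceeded 0.171 CPM in the 8 tumours. None of the 13 mitochondrially encoded genes was called.

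The 15 called genes of these last lists and of the cyclophilins all turned on single tumours. PPIF, CDKN2B, CD36, HSPB1, WIPI1, KRT19, PTGER4, PTGES2, IFIT2, IFITM3, CXCL2, TEAD4, SNAI1, ID1 and LAPTM5 all lost their calls without RMC-7977 replicate 1 (0.0636 to 0.152, adjusted p of the edgeR quasi-likelihood test). All 15 also lost them without RMC-7977 replicate 2 (0.0536 to 0.171), cobimetinib replicate 1 (0.0567 to 0.147) or cobimetinib replicate 2 (0.0566 to 0.138), 14 without cobimetinib replicate 4 (all but PTGER4), 13 without RMC-7977 replicate 4 (all but CD36 and CXCL2) and 7 without cobimetinib replicate 3. With all 22 tumours in the fit only KRT19 of the 15 was called. With the Vehicle tumours in the fit 11 of the 15 were not called (0.0542 to 0.415), all but CD36, HSPB1, KRT19 and PTGER4.

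**Figure D5:**
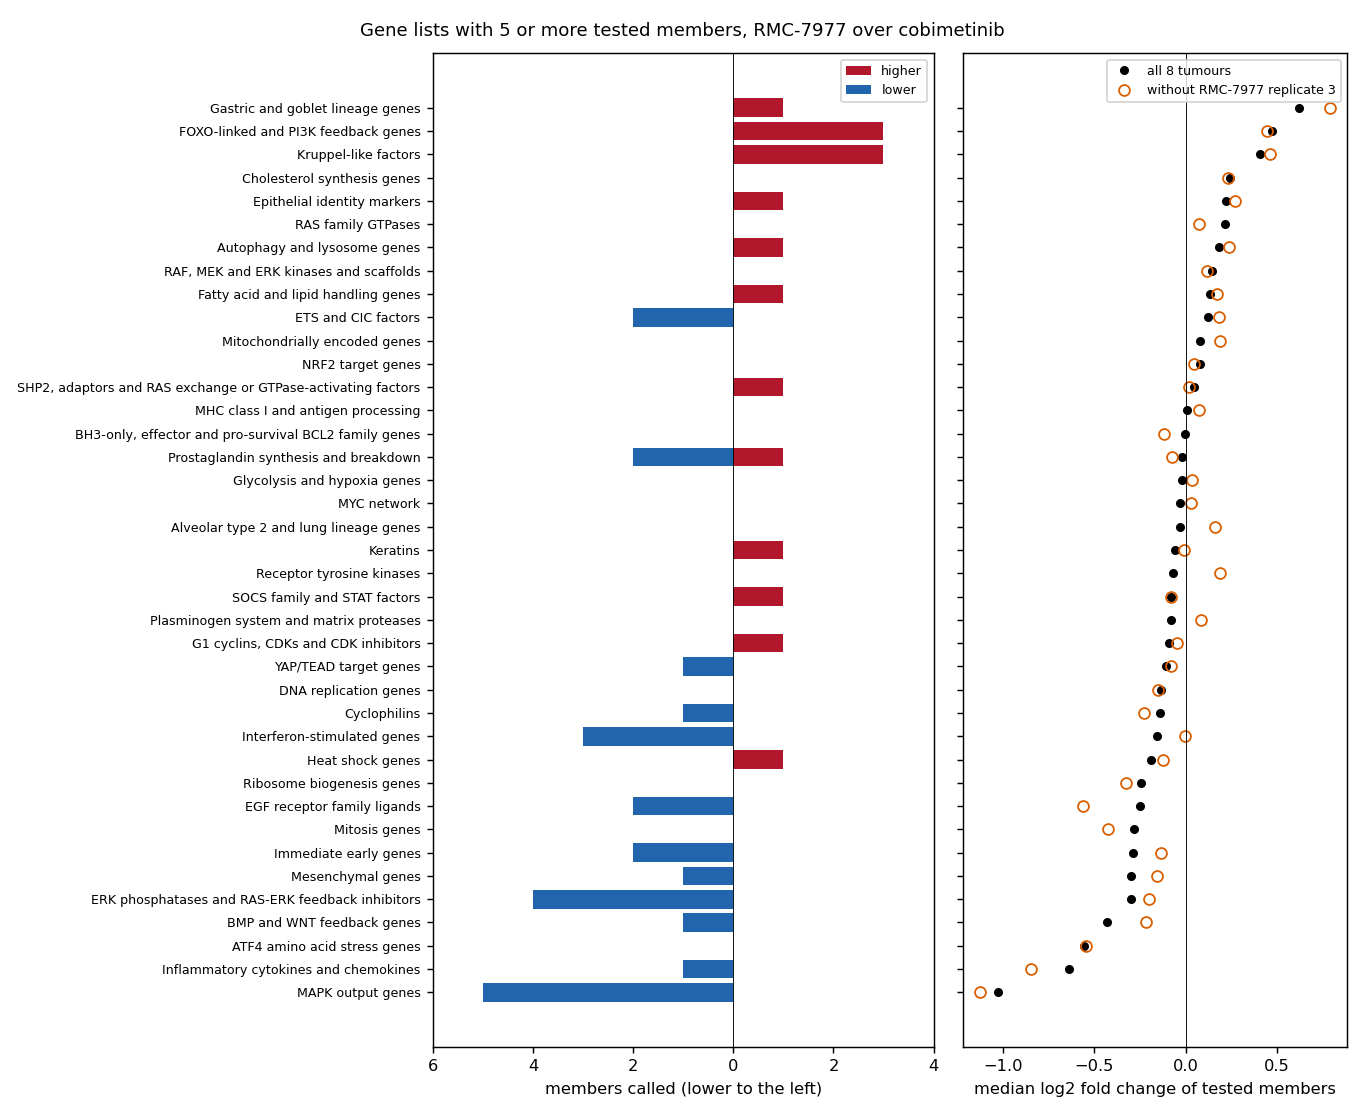
Members called in each gene list with 5 or more tested members (left, red higher and blue lower, number of genes) and the median log2 fold change of its tested members (right) with all 8 tumours (filled) and without RMC-7977 replicate 3 (open). The MAPK output genes lie lowest, with 5 called and a median of −1.03, and the FOXO-linked genes and Kruppel-like factors have 3 called higher each.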

How the data were processed

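RNA from tumours was sequenced in strand-specific libraries. The authors deposited a table of raw read counts per gene, whole numbers with no normalization. Per the submitters' processing notes, reads were handled with HISAT2 2.0.5 and fastp on build hg38, and featureCounts 1.5.0-p3, edgeR 3.22.5 and DESeq2 1.20.0 are also listed there. Not given in the sources used here are the strand setting of the counting, the handling of multi-mapped and host reads and the annotation release. All 58735 genes had the position that GENCODE 29 gives them, and the columns were mapped by the names in the labels.

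The main test was edgeR's quasi-likelihood F-test (edgeR 4.0.16, R 4.3.3), 2-sided, on the 4 RMC-7977 and 4 cobimetinib tumours. Genes passed filterByExpr (minimum count 10), libraries were scaled by TMM over 14 tumours (Vehicle included), and p-values were adjusted by Benjamini-Hochberg with a threshold of 0.05. The code was tested on simulated data. CPM uses these scaled library sizes, and the mean log2 CPM of the output genes adds a prior count of 2. Replicates of a group differed by more than sampling noise. Intervals for single counts are not given, and depth is in the report.

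The labels number the replicates but do not say that numbers mark a shared animal or batch. Deviations from the group means correlated between same-numbered tumours (0.138, 0.126, 0.457 and 0.167 for pairs 1 to 4), all above 0.1, so the replicate block is given where it changes a call or a count. RMC-7977 replicates 1 and 4 correlated better with cobimetinib replicate 2 (0.144 and 0.369) than with their own number. After removal of a smooth on GC content, chosen after seeing the data, the correlations were 0.119, 0.056, 0.291 and 0.128.

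The members and the 45 gene lists were chosen with earlier results of these data known. Named genes are the 12 largest called differences each way among protein-coding genes whose groups did not overlap and whose mean log2 CPM was at least 2, the MAPK output genes, RIT1, NRAS, HRAS, PTPN11, MAP2K1, MAP2K2 and PPIA, and up to 4 genes per list by adjusted p. Alternatives were DESeq2 1.42.0, other scalings and filters, other tumours in the fit, the block, GC correction, limma 3.58.1 voom weights, a fold threshold and each tumour left out. The lists for red blood cells and muscle gave no call, with summed levels of 0 to 0.767 and 42.2 to 70.5 CPM over both drugs.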

Additional observations from a re-analysis of the deposited data

Results flagged for a closer look

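In the RMC-7977, cobimetinib and Vehicle groups, 18 of 135 sets of values checked held 1 tumour far from the rest of its group. Chance alone would flag about 1 in 20 such groups. Among the genes that were higher under RMC-7977, Vehicle replicate 2 stood above the other Vehicle tumours for MRC1 (41.8 CPM), FAM177B (32.4 CPM) and SYBU (42.4 CPM), and cobimetinib replicate 2 stood above its group for ADGRF1 (8.11 CPM). Among the genes that were lower, RMC-7977 replicate 4 was high for ETV5 (3.73 CPM), RMC-7977 replicate 1 low for STMN3 (2.40 CPM), cobimetinib replicate 3 high for TFPI2 (65.7 CPM) and RMC-7977 replicate 3 low for DNAH17 (4.61 CPM). For PHLDA1, RMC-7977 replicate 3 (1.62 CPM) and cobimetinib replicate 1 (4.54 CPM) were each the highest of their group. For NRAS, Vehicle replicate 1 was high (167 CPM). MAP2K2 was low in RMC-7977 replicate 3 (133 CPM) and in Vehicle replicate 1 (109.5 CPM).

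As whole libraries, RMC-7977 replicate 3 had the lowest share of detected genes with 1 or 2 counts (5.02%) and the fewest genes detected (20035). Vehicle replicate 3 had fewer genes detected (23234) than the other Vehicle tumours. In Vehicle replicate 1 the rank correlation of GC content with a gene's deviation from its mean over the 8 drug-treated tumours was −0.555. That library also had the largest share of counts in ribosomal protein genes of its group (6.92%).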

How the results depend on the processing

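Of the 262 genes called (161 higher and 101 lower), the count was 912 (522 and 390) with DESeq2, 765 (349 and 416) with no filter on low counts, 1249 (698 and 551) with voom library weights, 622 (466 and 156) with GC correction and 1460 (1064 and 396) with the replicate block and GC correction. It was 102 (69 and 33) with the Vehicle tumours in the fit, 62 (43 and 19) with all 22 tumours, and 31 (18 and 13) tested against a log2 fold change of 0.5. Leaving out Trametinib replicate 4 from the full fit gave 61 lower, and scaling by library size gave 105 higher. The replicate block, which used the replicate numbers of the labels, gave 1630 (848 and 782). Of the 262 calls it ended those of CEACAM5 and CEACAM6 and no other. The count was within 1.5 times as high or low with RLE scaling (260), library-size scaling (230), a mean CPM of at least 1 (261) and the full fit without Trametinib replicate 4 (220). Leaving out 1 tumour each gave 21 to 710 called, 13 to 424 higher and 8 to 286 lower. Without RMC-7977 replicate 3, where 710 were called, DESeq2 gave 1218, GC correction 1259 and the fit with Vehicle tumours 123. The causes of these differences were not tested.

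None of the 24 largest differences changed direction under these alternatives, and of their values 390 kept the call and 114 lost it. Among the named genes signs turned only for uncalled ones. With GC correction, alone and with the replicate block, the log2 fold change was 0.0687 and 0.0713 for EPHA2, 0.124 and 0.0965 for HRAS, 0.214 and 0.221 for MAP2K2, 0.0633 and 0.0853 for TIMP1, and 0.0654 and 0.0531 for COL1A1. Over the fits that each left out 1 tumour it ran from −0.241 to 0.0315 for CCND1 (positive without cobimetinib replicate 1), −0.101 to 0.0019 for PTPN11 (cobimetinib 1), −0.226 to 0.0629 for MAP2K2 (cobimetinib 1, and 0.0309 without RMC-7977 replicate 3), −0.280 to 0.0038 for TIMP1 (cobimetinib 4), −0.366 to 0.0054 for COL1A1 (RMC-7977 replicate 3), −0.00036 to 0.271 for MT-ATP6 (negative without cobimetinib 3), and −0.0761 to 0.438 for MT-ND6 (RMC-7977 replicate 4, and −0.0069 without cobimetinib 3). Depth limits genes below about 1 CPM, where 1 count is a large share of the level.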

Other observations

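Several genes with large or firm differences between RMC-7977 and cobimetinib fall outside the lists and the rule for named genes, and those below were chosen after their values were seen. RPTN, a protein of the cornified skin layer, lay at 3.93, 4.61, 1.37 and 1.79 CPM under RMC-7977 and 0, 0, 0.135 and 0 CPM under cobimetinib, with no count in 4 of the 6 Vehicle tumours and up to 0.162 CPM in the others. CEACAM7, a relative of CEACAM5 and CEACAM6, lay at 3.26, 7.30, 2.22 and 5.59 CPM and 0.922, 0.795, 0.676 and 1.201 CPM (2.34 ± 0.41 on the log2 scale, RMC-7977 over cobimetinib, adjusted p = 0.022 by edgeR's quasi-likelihood test), and the counting may have split reads among these relatives. P3H2, which modifies proline in basement membrane collagen, lay at 56.3, 69.0, 39.4 and 51.0 CPM and 13.3, 18.9, 10.54 and 13.8 CPM (1.93 ± 0.22, adjusted p = 0.00338), with Vehicle between 18.1 and 23.1 CPM.

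SYTL2 and SYTL5, synaptotagmin-like proteins that bind RAB27 and act in vesicle transport, were both higher under RMC-7977. SYTL2 lay at 79.8, 76.9, 57.7 and 63.5 CPM and 19.8, 20.7, 29.5 and 21.4 CPM (1.60 ± 0.17, adjusted p = 0.00338), and SYTL5 at 37.3, 30.1, 31.1 and 30.4 CPM and 13.6, 11.8, 13.98 and 10.3 CPM (1.37 ± 0.16, adjusted p = 0.00338). Neither overlapped between the drugs. LIMA1, which binds actin, lay at 148, 140.4, 142 and 128 CPM and 61.6, 71.7, 64.8 and 71.7 CPM (1.05 ± 0.12, adjusted p = 0.00393). On the lower side, MILR1, an immunoglobulin-like receptor known from mast cells, lay at 0.575, 0.556, 1.11 and 1.04 CPM under RMC-7977 and 3.97, 10.7, 14.6 and 9.86 CPM under cobimetinib (−3.55 ± 0.43, adjusted p = 0.00429), while the 6 Vehicle tumours ranged from 3.17 to 23.2 CPM. CCNA1, a cyclin of the germ line, lay at 0.384, 0.715, 1.45 and 1.10 CPM and 2.91, 3.81, 8.85 and 4.11 CPM (−2.40 ± 0.46, adjusted p = 0.0311).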
